A study of Mus musculus with 69 samples.

Results

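The genes described here were 43 ribosome biogenesis and nucleolar genes, chosen as the rows of the count table whose symbol was on a list of RNA polymerase I factors, small nucleolar ribonucleoprotein (snoRNP) proteins, abundant nucleolar proteins and factors that assemble the 40S and 60S ribosomal subunits. They were 43 of the 55367 gene symbols in the table, and all 43 had enough reads to be tested in each comparison. RNA-seq was run on E14Tg2A mouse embryonic stem (mES) cells grown in serum and LIF (0 h) and on cells sorted by fluorescence from mosaic gastruloids, stem cell aggregates that model early embryonic development, at 48, 72, 96, 120 and 144 h. The study asked how wild-type (WT) cells and p53-knockout (p53KO) cells fare when mixed, and what p53KO neighbours do to WT cells.

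The WT–mCherry clone carried H2B-mCherry driven by EF1α, and the WT–emiRFP clone carried H2B-emiRFP670 driven by CAG. The p53KO–emiRFP clone was made from WT–emiRFP with Cas9, carried a homozygous frameshift in exon 4 of Trp53 and had been selected with Nutlin-3a, which activates p53 in cells that still have it. Each line was therefore a single clone, and a clone effect and a p53 effect cannot be told apart from the p53KO line alone. WT + WT gastruloids were seeded with 150 cells of each WT clone and WT + p53KO gastruloids with 150 WT–mCherry and 25 p53KO–emiRFP cells. Both were pulsed with the Wnt agonist CHIR99021 from 48 to 72 h. From 48 h on, p53KO–emiRFP and WT–emiRFP cells thus differed in gastruloid type, neighbour and seeding as well as genotype. WT–mCherry cells of the gastruloid types likewise differed in both the kind and the number of partner cells. These factors cannot be told apart here. The 3 clones at 0 h and the 4 sorted populations at each later time point (WT–emiRFP and WT–mCherry from WT + WT, p53KO–emiRFP and WT–mCherry from WT + p53KO) gave 23 groups of 3 replicates from separate experiments, 69 libraries in all. The 4th population, WT–mCherry sorted from WT + p53KO, is called WT–mCherry beside p53KO here.

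The libraries held 26722541 to 72981570 counts (median 53098728). Trp53 itself checked the labels: its mean count, scaled to the common library size as are all counts below, lay between 1621 and 2484 in the 6 p53KO groups and between 14611 and 25497 in the 17 WT groups. Replicate 3 of WT–mCherry mES cells stood apart for a few members at 0 h, with 295639 Npm1 counts against 220055 and 220748 in replicates 1 and 2.

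Ribosomes are built in the nucleolus. RNA polymerase I transcribes the precursor of the large ribosomal RNAs there, box C/D and box H/ACA snoRNPs guide its methylation and pseudouridylation, and assembly factors fold, cut and package it into pre-40S and pre-60S particles. Growing cells devote much of their RNA and protein synthesis to this work, and Myc and Mycn are known regulators of many of its genes, in part through the E-box CACGTG. Damage to ribosome assembly is also known to stabilize p53, because free ribosomal proteins bind the ubiquitin ligase Mdm2.

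The E-box is shown because Myc and Mycn are known to act in part through it on genes of this kind. In the RefSeq promoter table for GRCm38.p6, which covers 250 bases before to 50 bases after each start, 37 of the 43 members were found, and 9 of them held CACGTG (24.3%). The motif reads the same on both strands. It was in 17 of 95 other ribosome biogenesis genes (17.9%) and in 2187 of 27025 genes of the whole table (8.09%). A match is a run of letters, not a measured binding site. The windows of 6 members whose counts are described below follow, 5′ to 3′ on the strand of the gene, with the E-box in capitals. The position is that of its first base, counted from 0 at the start.
Mybbp1a (GRCm38.p6 chr11:72441347-72441376, plus strand, position 40): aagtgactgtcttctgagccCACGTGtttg
Nop2 (GRCm38.p6 chr6:125131811-125131840, plus strand, position -60): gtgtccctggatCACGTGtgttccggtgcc
Pes1 (GRCm38.p6 chr11:3963965-3963994, plus strand, position 2): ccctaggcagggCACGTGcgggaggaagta
Utp20 (GRCm38.p6 chr10:88826765-88826794, minus strand, position 37): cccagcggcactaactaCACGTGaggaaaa
Grwd1 (GRCm38.p6 chr7:45830740-45830769, minus strand, position 34): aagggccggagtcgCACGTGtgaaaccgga
Ltv1 (GRCm38.p6 chr10:13193092-13193121, minus strand, position 28): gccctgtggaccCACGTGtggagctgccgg
The E-box of Nop2 lies upstream of the start and those of the other 5 lie after it. Imp4, Tsr1 and Wdr43 are the other members with the motif.

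**Figure D1:**
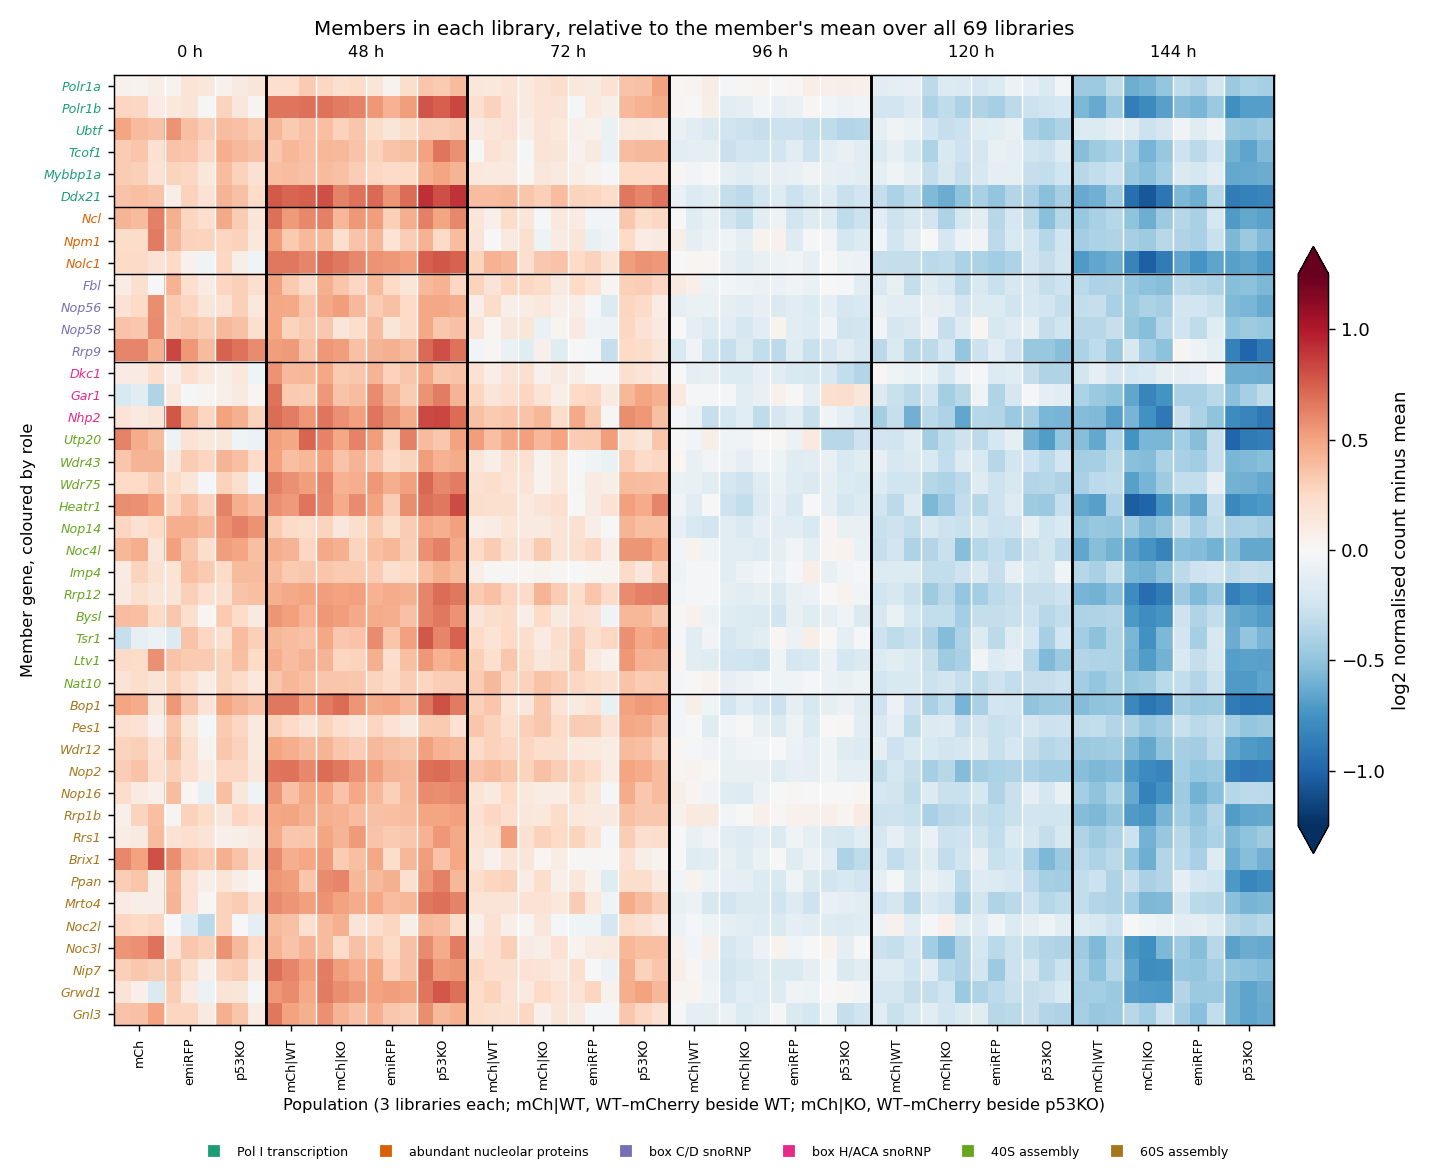
Log2 normalized count of each of the 43 members (rows, ordered and coloured by role) in each of the 69 libraries (columns, by time and population), relative to the member's mean over all 69 libraries (red above, blue below, log2 units). Most rows are red at 48 h and blue by 144 h in every population, with the deepest red at 48 and 72 h and the deepest blue at 144 h in p53KO–emiRFP columns.

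Compared per length, the members covered a wide range of levels. In WT–mCherry cells of WT + WT gastruloids at 48 h, Npm1, a histone and ribosomal protein chaperone, had 94400 ± 6420 normalized counts per kilobase of exon, and Ncl, the nucleolin that packs pre-rRNA, had 22470 ± 1250 (means ± SD, n = 3). The same measure was 802 ± 22.8 for Imp4, a U3 snoRNP protein, and 714 ± 22.6 for Wdr12, a partner of Bop1 and Pes1, the lowest of the 43. Npm1 and Ncl ranked highest in this group whether exons were merged or the transcript with the longest coding sequence was used, but Wdr12 then moved to rank 30. Together the 43 members took 1.99% ± 0.054 (SD, n = 3) of all counts in that group.

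Over the time course of WT cells, most members rose from mES cells to gastruloids at 48 h, and all were lower at 144 h than at 48 h. From 0 to 48 h, 30 of the 43 rose and 4 fell by edgeR's quasi-likelihood test (adjusted p below 0.05), with a median log2 fold change of 0.16, when 33.1% of all tested genes rose and 37.2% fell. From 48 to 144 h, none of the 43 rose and all 43 fell, by 0.42 to 1.38 on the log2 scale (median -0.86), against 43.3% and 35.3% of all genes, whose median was 0.09. These contrasts average the WT populations of a time point, which from 48 h on include WT–mCherry beside p53KO. From 48 to 144 h the median was -0.74 in WT–emiRFP cells alone and -0.87 in WT–mCherry cells beside WT alone.

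Polr1b, a core subunit of RNA polymerase I (chr2:129100995-129126594), traced this course. WT–emiRFP mES cells had 7927, 8082 and 7300 normalized counts in the 3 replicates, WT–emiRFP gastruloid cells had 10514, 9793 and 10442 at 48 h, and 4972, 4885 and 5261 at 144 h. WT–mCherry cells beside WT had 11497, 11485 and 11670 at 48 h and 4917, 4677 and 5245 at 144 h. In both clones the 48 h values lay above all 0 h values of that clone and the 144 h values below them. Over the WT populations Polr1b rose by 0.45 ± 0.03 (log2, ± SE; edgeR adjusted p = 6.0e-18) from 0 to 48 h and changed by -1.23 ± 0.03 (edgeR adjusted p = 4.7e-40) from 48 to 144 h. Its catalytic partner Polr1a changed by 0.12 ± 0.03 and -0.63 ± 0.03 over the same spans. Ubtf, which holds the ribosomal DNA promoter open, was among the 4 members that fell from 0 to 48 h (-0.12 ± 0.03, edgeR adjusted p = 2.5e-04).

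By role, the members that rose from 0 to 48 h included 4 of 6 polymerase I factors, 7 of 12 factors of 40S assembly and 12 of 15 of 60S assembly, and differences between roles were not tested. All 3 box H/ACA proteins rose, led by Gar1 (0.53 ± 0.05, the largest rise of the 43), and Dkc1, the pseudouridine synthase, rose by 0.26 ± 0.04. Of the 60S factors Grwd1, a chaperone of a ribosomal protein, rose by 0.47 ± 0.04. Of the 4 box C/D proteins, the methyltransferase Fbl rose by 0.15 ± 0.04 and the core protein Nop56 by 0.11 ± 0.04, while the U3 protein Rrp9 had -0.12 ± 0.05. Nolc1, which carries snoRNPs to the nucleolus, rose by 0.45 ± 0.03, and Npm1 had 0.00 ± 0.05 (edgeR adjusted p = 0.95). Several small changes rested on single replicates: Ncl lost its call without replicate 1, Rrp9 without 1 or 2, and Nop56 without 1 or 2, with edgeR adjusted p = 0.13, 0.44, 0.063, 0.19 and 0.35 in turn. Nop14, another member that fell, lost its call without replicate 2 or 3 (edgeR adjusted p = 0.16 and 0.056). In WT–emiRFP cells alone 21 of the 43 members were called over this span, against 60.3% of all genes. The pluripotency state changed at the same time. All 8 naive pluripotency markers fell, from a summed level of 198993–207782 to 10743–11550 normalized counts in WT–emiRFP cells (ranges are the lowest and highest library), and all 4 formative and primed markers rose, from 16076–18481 to 209114–217707. Of 24 cell cycle genes 15 rose and 3 fell. The part of these lists in the rise of the members was not tested.

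Most members fell at each later step. From 48 to 72 h, 40 of the 43 fell and none rose, with Polr1a, the acetyltransferase Nat10 and Pes1 not passing the test, against 32.8% of all genes rising and 34.1% falling. From 72 to 96 h 42 fell and none rose (30.4% and 28.2% of all genes rose and fell). From 96 to 120 h 32 fell and 1, Ubtf, rose by 0.07 ± 0.03, when 28.8% of all genes rose and 28% fell. From 120 to 144 h 39 fell and none rose (28.6% and 26.8% of all genes). Altogether 29 of the 43 fell in each of these 4 steps, a joint count for which no share of all genes is given. The medians of the 43 were -0.29, -0.26, -0.16 and -0.20 on the log2 scale. Ubtf lost its rise without replicate 2 or 3 (edgeR adjusted p = 0.11 and 0.21). In WT–emiRFP cells alone the last 2 steps had 18 and 11 called members (42.3% and 33.8% of all genes). The step from 72 to 96 h had 27 there, with the share of all genes given in the closing section.

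The largest falls from 48 to 144 h in WT cells were those of Ddx21, an RNA helicase of polymerase I and snoRNPs (-1.38 ± 0.03), Nolc1 (-1.36 ± 0.03), Polr1b (-1.23 ± 0.03) and Heatr1, a subunit of the small subunit processome (-1.20 ± 0.05). Each had an edgeR adjusted p of 7.7e-31 or below. Ddx21 (chr10:62580251-62602281) had 47631, 42736 and 47323 normalized counts at 48 h among WT–emiRFP replicates and 19830, 19076 and 22743 there at 144 h, so that the groups were far apart. The smallest falls were those of Noc2l (-0.42 ± 0.04), a factor of pre-60S transport, and Ubtf (-0.45 ± 0.03). Ncl changed by -0.94 ± 0.04 and Npm1 by -0.73 ± 0.05, each an edgeR adjusted p of 2.8e-20 or below.

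By role, the medians of the fall from 48 to 144 h ran from -0.71 for the 6 polymerase I factors and -0.73 for the 4 box C/D proteins to -0.87 for the 15 factors of 60S assembly, -0.89 for the 12 of 40S assembly, -0.94 for the 3 abundant nucleolar proteins and -0.97 for the 3 box H/ACA proteins. The share of all counts on the 43 members in WT–emiRFP cells went from 1.89% ± 0.056 (SD, n = 3) at 48 h to 1.31% ± 0.044 (SD, n = 3) at 144 h. Of the 116 other genes of the pathway, 110 fell and 2 rose (median -0.70). Other lists moved over the same time. All 8 naive pluripotency markers rose, their summed normalized counts going from 10743–11550 to 80039–93354 in the WT–emiRFP population. All 4 formative and primed markers fell, from 209114–217707 to 9356–11616 in sum, as did 3 of 4 general pluripotency markers (72418–76864 to 49417–54592). Of 4 endoderm markers (Sox17, Foxa2, Cdh1 and Epcam) 2 rose and 2 fell, and their sum went from 56014–61030 to 25040–28634. That sum was already 27744–28617 in WT–emiRFP mES cells, so here and below it is not a measure of endoderm alone. The markers that rose included 6 of 7 of the primitive streak and caudal epiblast, 5 of 7 of paraxial mesoderm, 5 of 5 of spinal cord, 4 of 6 haematoendothelial and 3 of 4 cardiac ones. Of 24 cell cycle genes 18 were lower at 144 h and 5 higher. The part of these lists in the fall of the members was not tested. In sorted bulk samples, fewer cells of a type and less RNA per cell cannot be told apart. Scaling by library totals raised the median of all genes by 0.21 over this span, and the median of the 43 members was then -0.65.

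**Figure D2:**
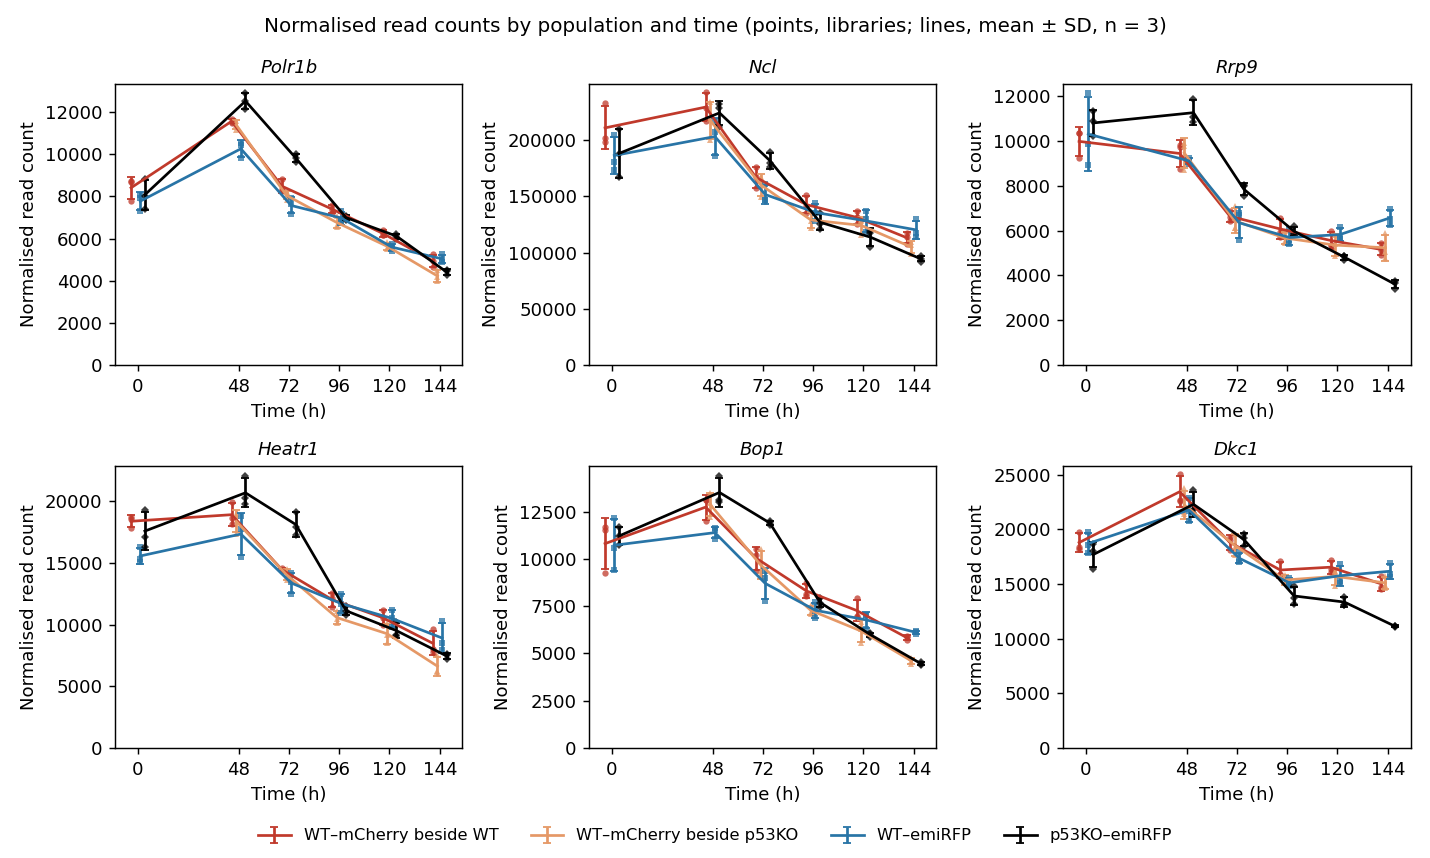
Normalized counts of Polr1b, Ncl, Rrp9, Heatr1, Bop1 and Dkc1 (vertical axes, linear, from 0) against time (horizontal axis, h); points are libraries, and lines with bars are the mean ± SD (n = 3) of each population. Polr1b peaks at 48 h and declines to 144 h in all populations, and the p53KO–emiRFP values of Rrp9 and Dkc1 lie below those of the other populations at 144 h.

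In p53KO–emiRFP cells a rise and then a fall were measured as well. From 0 to 48 h 32 of the 43 rose and 1, the 40S factor Nop14, fell (median 0.27), against 28.3% and 31.2% of all genes. Nop14 lost its fall without replicate 2 or 3 (edgeR adjusted p = 0.33 and 0.050), so that 0 members were lower in either fit, when 26.7% and 27.8% of all genes were, and 0 were lower without a filter on low counts. From 48 to 144 h all 43 fell, by 0.70 to 1.72 (median -1.16), and none rose, against 37% of all genes rising and 34.5% falling. Ddx21 fell most (-1.72 ± 0.06), followed by Rrp9 (-1.64 ± 0.08), the box H/ACA protein Nhp2 (-1.62 ± 0.10) and Bop1 (-1.60 ± 0.07), a subunit of the PeBoW complex that acts on pre-60S particles. Whether these falls differed from those of WT–emiRFP cells was tested as the change of the p53KO difference from 48 to 144 h, given after the single time points. Scaling by library totals moved the median of all genes by 0.20 here, and that of the members to -0.97. In p53KO–emiRFP cells too, naive markers fell and formative markers rose in the first 48 h (all 8 and all 4). From 48 to 144 h all 4 formative and primed markers fell, from 209843–222283 to 6407–7489 in sum, all 7 paraxial mesoderm markers rose, from 1480–1900 to 20685–27901, and of 24 cell cycle genes 16 fell and 4 rose (459646–471606 to 346901–350640). Their part in the fall of the members was not tested.

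Between p53KO–emiRFP and its parent WT–emiRFP, no member passed the test in mES cells. At 0 h the edgeR test called 0 of 43 higher and 0 lower, when 1.98% of all genes were called higher and 4.15% lower. An unadjusted p below 0.05 was found for 0 of 43, and DESeq2 called 0. The fit of all 69 libraries called 2 higher, and WT–mCherry as the control gave 3 higher and 1 lower. The shares of all genes in these fits are in the closing section. The median difference was 0.03, and the differences ran from -0.14 to 0.23. Polr1b had 8814, 7991 and 7411 normalized counts in mES cells of the p53KO–emiRFP clone and 7927, 8082 and 7300 in those of WT–emiRFP, so the groups overlapped.

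At 48 h the members were higher in p53KO–emiRFP cells than in their WT–emiRFP parent. Of the 43, 27 were called higher and none lower (median 0.18), against 10.3% of all genes higher and 11.7% lower. At 72 h 32 were called higher and none lower (median 0.26; all genes 13.4% and 15.7%). All 3 p53KO–emiRFP values lay above all 3 WT–emiRFP values for 29 members at 48 h and 37 at 72 h, as they did for 18.6% and 21.2% of all genes with a mean of at least 10. Altogether 25 members were higher at both times and 34 at 48 or 72 h, without a share of all genes for these joint counts. The 9 that were higher at neither were Ubtf, Npm1, Fbl, Nop58, Dkc1, Utp20, Nat10, Brix1 and Ppan.

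Rrp9 (chr9:106475963-106485424) and Polr1b had the largest differences at 48 h. In the p53KO–emiRFP population Rrp9 had 11071, 11861 and 10814 normalized counts, against 9121, 9242 and 8942 in its parent WT–emiRFP and 9731, 9819 and 8747 in the WT–mCherry population beside WT. The p53KO–emiRFP values were above all of the others. The difference from WT–emiRFP was 0.31 ± 0.06 (edgeR adjusted p = 0.0015). Polr1b had 12511, 12132 and 12885 in p53KO–emiRFP and 10514, 9793 and 10442 in WT–emiRFP cells, a difference of 0.29 ± 0.04 (edgeR adjusted p = 1.8e-04). WT–mCherry cells beside WT lay between them for Polr1b, with 11497, 11485 and 11670.

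Of the other polymerase I factors, Polr1a differed by 0.22 ± 0.05, Mybbp1a, a Myb-binding nucleolar protein, by 0.20 ± 0.04, Ddx21 by 0.22 ± 0.06 and Tcof1, the treacle protein that recruits polymerase I, by 0.24 ± 0.05, all called higher. Ubtf had 0.12 ± 0.04 and was called only with the replicate block (edgeR adjusted p = 0.064, 7.3e-04 with the block). Among assembly factors Heatr1 (0.25 ± 0.07), Bop1 (0.25 ± 0.05) and Noc3l (0.26 ± 0.06), which acts in pre-60S export, were higher, and 9 of 12 factors of 40S and 9 of 15 of 60S assembly were called. Ncl had 0.14 ± 0.07 (edgeR adjusted p = 0.15, 4.9e-05 with the block) and Fbl 0.10 ± 0.08 (edgeR adjusted p = 0.41, 0.011 with the block). Npm1, at 0.05 ± 0.07, and Dkc1, at 0.03 ± 0.06, were called in neither fit.

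These differences at 48 h were small and their count moved with the fit. With the replicate block 38 members were called higher and 0 lower, when 22.3% of all genes were higher. Leaving out replicate 1, 2 or 3 left 9, 12 or 17 called members in place of 27, with 3.89%, 4.08% and 6.67% of all genes higher in these fits. Heatr1, Bop1 and Noc3l lost their calls without replicate 1 (edgeR adjusted p = 0.10, 0.054 and 0.082), as Polr1a did without 1 or 2 (0.083 and 0.063). Against WT–mCherry beside WT 8 members were called higher (median 0.08; 12% of all genes), and against WT–mCherry of the same gastruloids 11 (median 0.10; 12.8%).

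At 72 h the differences were larger. Bop1 (chr15:76452989-76477277) had 11808, 12023 and 11877 normalized counts in p53KO–emiRFP, 8986, 9346 and 7791 in WT–emiRFP and also 10218, 10553 and 9373 in WT–mCherry cells beside WT. Heatr1 (chr13:12395027-12440289) had 17921, 17233 and 19159 in p53KO–emiRFP, 12506, 13433 and 14164 in WT–emiRFP and 14553, 14359 and 14415 in WT–mCherry cells beside WT. For both genes the p53KO–emiRFP values were above every value of the other 2 populations. The differences from WT–emiRFP were 0.45 ± 0.07 for Bop1 (edgeR adjusted p = 2.6e-04), 0.44 ± 0.06 for Heatr1 (3.7e-05), 0.39 ± 0.05 for Ddx21 (1.7e-05) and 0.37 ± 0.05 for Polr1b (5.5e-05).

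Ncl reached 0.26 ± 0.06 at 72 h, the 60S GTPase nucleostemin Gnl3 0.24 ± 0.06, Nop56 0.23 ± 0.07 and Pes1, a PeBoW subunit, 0.18 ± 0.05, all called higher. Without replicate 2 none of these 4 was called (edgeR adjusted p = 0.055, 0.11, 0.14 and 0.15). Utp20, a scaffold of the small subunit processome, was the single member with a lower mean in p53KO–emiRFP cells, at -0.15 ± 0.07 (edgeR adjusted p = 0.10, 0.019 with the block). Against WT–mCherry beside WT 22 members were called higher and 1 lower (14.4% and 15.1% of all genes), and against WT–mCherry of the same gastruloids 27 and 1 (15% and 16.3%).

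Several other gene lists moved with the members at these times. Of 24 cell cycle genes, 12 were higher in p53KO–emiRFP cells at 48 h and 17 at 72 h, and none was lower. Their summed level at 48 h was 459646–471606 in p53KO–emiRFP and 410123–435454 in WT–emiRFP cells. Myc was higher by 0.72 ± 0.08 at 48 h and 0.67 ± 0.09 at 72 h, and Mycn by 0.38 ± 0.06 and 0.31 ± 0.07, while Myc had 0.00 ± 0.09 in mES cells. At 72 h 5 of 8 naive pluripotency markers were lower in p53KO–emiRFP cells, with a summed level of 21149–21637 against 25215–27663. Of 4 formative and primed markers 1 was called higher at 72 h, and their summed level was 55659–62640 against 35390–44839. The summed level of the haematoendothelial markers was 1393–1465 against 1592–1680. The mitochondrial share of all counts at 48 h was 0.880 to 1.11% in p53KO–emiRFP libraries, below the 1.30 to 1.46% of WT–emiRFP, the 1.26 to 1.37% of WT–mCherry beside WT and the 1.27 to 1.37% beside p53KO. At 72 h it was 0.817 to 0.946% against 0.791 to 1.07% in WT–emiRFP, with overlap. The part of these lists and of this share in the members' differences was not tested. Of the 116 other genes of the pathway 56 were higher and none lower at 48 h, and 77 were higher and 2 lower at 72 h.

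**Figure D3:**
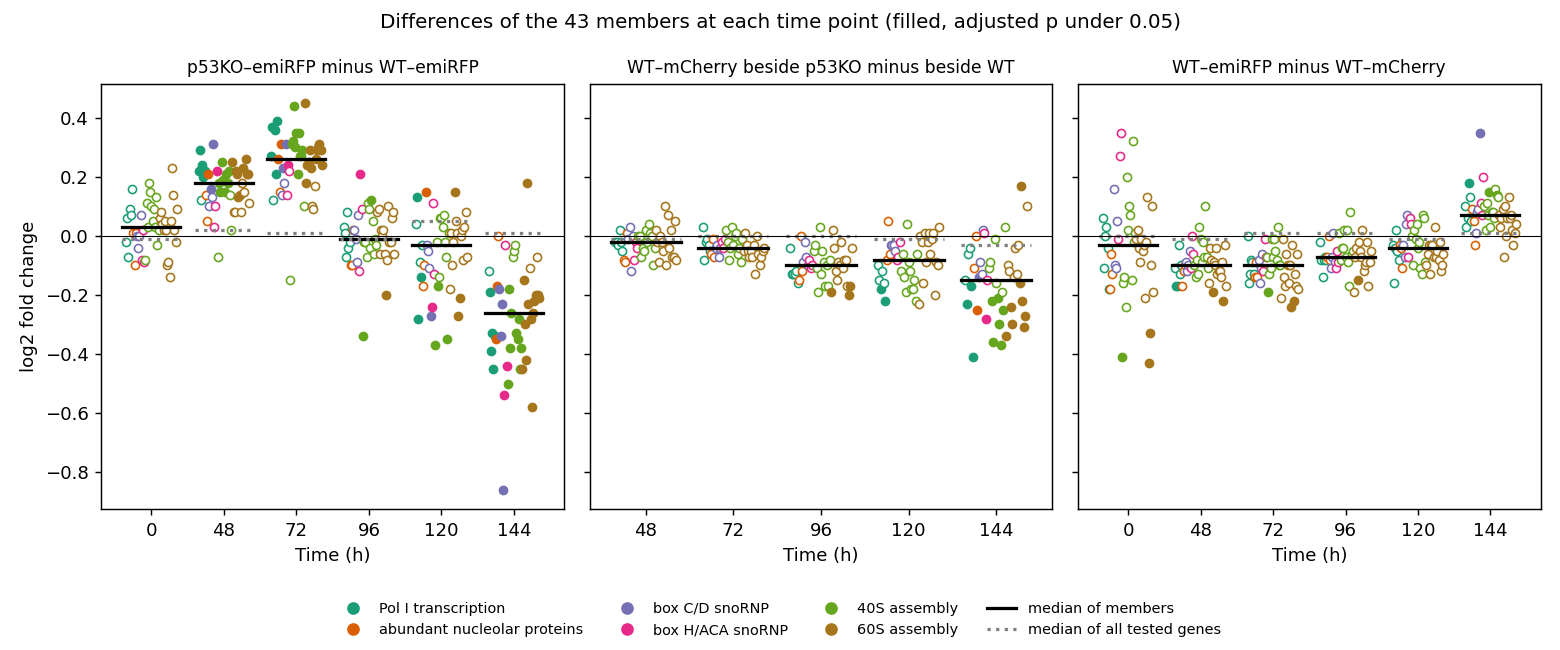
Log2 difference of each of the 43 members (points, coloured by role, filled where adjusted p was under 0.05) against time (h) for p53KO–emiRFP minus WT–emiRFP, WT–mCherry beside p53KO minus beside WT, and WT–emiRFP minus WT–mCherry beside WT. Solid lines mark the median of the members and dotted lines that of all tested genes. The p53KO median goes from 0.03 at 0 h to 0.18 at 48 h and 0.26 at 72 h, and to -0.26 at 144 h, while the neighbour median stays at or below -0.02 throughout.

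By 96 h the members no longer stood higher in p53KO–emiRFP cells. The edgeR test called 2 members higher, Gar1 (0.21 ± 0.05) and the 40S export factor Rrp12 (0.12 ± 0.04), and 2 lower, Utp20 (-0.34 ± 0.05) and the 60S factor Brix1 (-0.20 ± 0.06), against 9.45% and 13.8% of all genes. With the replicate block 8 were higher and 5 lower, when 17.4% and 21.1% of all genes were. The median was -0.01. It was -0.09 against WT–mCherry beside WT and 0.05 against WT–mCherry of the same gastruloids, with the counts given in the closing section. Utp20 (chr10:88746607-88826804) had 10400, 10354 and 11002 normalized counts in p53KO–emiRFP, 13358, 12579 and 14358 in WT–emiRFP and 13187, 12872 and 13891 in WT–mCherry cells beside WT. The p53KO–emiRFP values were below all of the others. Leaving out a replicate left 3, 1 or 2 called members (replicate 1, 2 or 3; 10.1%, 15.8% and 19% of all genes), and Utp20 was called each time.

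At 120 h 9 members were lower in p53KO–emiRFP cells and 3 were higher, with a median of -0.03, against 23.7% of all genes lower and 27.3% higher. With the replicate block 16 were lower and 4 higher, when 28% and 33.7% of all genes were. In either direction 6 were called without replicate 1 and 7 without replicate 3 (36.5% and 42.4% of all genes). The lower members were led by Utp20 (-0.37 ± 0.07), Ltv1 (-0.35 ± 0.06), an export factor of pre-40S particles, Ubtf (-0.28 ± 0.04) and Brix1 (-0.27 ± 0.06). Ubtf (chr11:102304560-102319742) had 12787, 12327 and 12837 in p53KO–emiRFP and 15129, 15247 and 15801 in WT–emiRFP cells, without overlap. Those that were higher were Nop16 (0.15 ± 0.06), Nolc1 (0.15 ± 0.04) and Polr1b (0.13 ± 0.05). Polr1b lost that call without any 1 of the replicates (edgeR adjusted p = 0.15, 0.16 and 0.081), as did Nop16, and Nolc1 lost its own without replicate 1 or 3 (0.14 and 0.057). Against WT–mCherry beside WT, Polr1b had -0.03 (edgeR adjusted p = 0.63).

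Cell type markers had separated by then. All 8 naive pluripotency markers were lower in p53KO–emiRFP cells at 96 and 120 h, with a summed level at 120 h of 10940–11625 against 60613–70079 in WT–emiRFP cells. Of 7 primitive streak and caudal markers 6 were higher at 96 h and 7 at 120 h (42107–49069 against 13228–14787 in sum). Of 7 paraxial mesoderm markers 4 were lower at 96 h and 4 higher at 120 h (24792–31900 against 12335–17067 in sum). Of 24 cell cycle genes 2 were higher at 96 h, and 3 were higher and 5 lower at 120 h. Other marker sums differed as well. Of 4 endoderm markers 3 were higher at 96 h (24635–27636 against 15549–18644) and 3 lower at 120 h (10482–11636 against 18204–21158). All 4 general pluripotency markers were lower at 120 h (18860–20002 against 36883–43028), as were 4 of 5 haematoendothelial markers tested (812–1132 against 5315–5480). The sum of the formative and primed markers was 17579–20224 against 12645–14577 at 96 h, with 1 of 4 called higher. The part of these lists in the members' differences at 96 and 120 h was not tested.

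At 144 h the difference had the opposite sign to that at 48 and 72 h. Of the 43 members 34 had lower levels in p53KO–emiRFP cells and 1, the 60S factor Nop16, a higher level (median -0.26), against 32.1% of all genes lower and 33.1% higher. All 3 p53KO–emiRFP values lay below all 3 WT–emiRFP values for 36 members, as for 35.4% of all genes. The 8 other members that were not lower were Polr1a, Nolc1, Gar1, Nop14, Noc4l, Imp4, Rrs1 and Nip7, of which Polr1a had -0.12 ± 0.06 (edgeR adjusted p = 0.067, 0.015 with the block). Of the 34 members that had been higher at 48 or 72 h, 25 were lower at 144 h, as were all 9 of those that had been higher at neither. The share of all genes with such a course is not given, so these joint counts only describe the members.

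Rrp9 had the largest difference. The p53KO–emiRFP replicates had 3775, 3414 and 3661 normalized counts and those of WT–emiRFP 6942, 6493 and 6266. The WT–mCherry replicates had 5150, 5436 and 4897 beside WT and 5894, 5052 and 4758 in WT–mCherry cells of the same gastruloids as the p53KO cells. The p53KO–emiRFP values were below all the others, and the WT–emiRFP values above all of them. The difference from WT–emiRFP was -0.86 ± 0.08 (edgeR adjusted p = 2.6e-07), while WT–emiRFP exceeded WT–mCherry beside WT by 0.35 ± 0.08 (edgeR adjusted p = 0.0047). Exons of Rrp9 overlap those of Parp3 on the other strand by 20 bases, and the strand setting of the counts is not given in the sources used here, so a small share of its reads may be from Parp3.

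Dkc1 (chrX:75095854-75109777) had 11180, 11186 and 11048 in p53KO–emiRFP, 15603, 15929 and 16949 in WT–emiRFP and 14569, 15718 and 14750 in WT–mCherry cells beside WT. The p53KO–emiRFP values were below every WT value. It differed from WT–emiRFP by -0.54 ± 0.05 (edgeR adjusted p = 4.3e-07), Ppan, a factor of pre-60S assembly, by -0.58 ± 0.05 (4.9e-07) and Utp20 by -0.50 ± 0.08 (6.8e-05). All 4 box C/D proteins were lower, with -0.18 ± 0.04 for Fbl and -0.34 ± 0.05 for Nop56. Of the polymerase I factors 5 of 6 were lower, with -0.39 ± 0.05 for Ubtf and -0.45 ± 0.05 for Mybbp1a. Ncl had -0.35 ± 0.06 and Npm1 -0.17 ± 0.05, of which Npm1 lost its call without replicate 1 or 3 (edgeR adjusted p = 0.099 and 0.078). Of 12 factors of 40S assembly 9 and of 15 of 60S assembly 12 were lower, with -0.45 ± 0.04 for Bop1, -0.15 ± 0.04 for Pes1 and -0.21 ± 0.06 for Gnl3. Pes1 lost its call without replicate 2 (edgeR adjusted p = 0.070).

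The count at 144 h depended on the WT population it was set against. Against WT–mCherry beside WT 31 members were lower and 0 higher (median -0.19; 26.2% and 27.8% of all genes). Against WT–mCherry of the same gastruloids 13 were lower and 6 higher (median -0.04; 29.5% and 34.7% of all genes). Set against these neighbours, Heatr1 had 0.17 (edgeR adjusted p = 0.16) in place of -0.26 ± 0.10, and Polr1b had 0.06 (0.39) in place of -0.19 ± 0.06. Both also lost their call against WT–emiRFP without replicate 1 (edgeR adjusted p = 0.14 and 0.080), and Nop16 lost its own without replicate 2 or 3 (0.16 and 0.097).

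Cell type markers moved with this comparison. All 8 naive pluripotency markers, such as Klf4 and Esrrb, were lower in p53KO–emiRFP cells at 144 h (median -2.30), and their summed level was 13266–20207 against 80039–93354 in WT–emiRFP cells. All 4 general pluripotency and all 4 formative markers were lower as well. All 7 primitive streak and caudal markers were higher (13651–14308 against 1043–1369), as were all 7 paraxial mesoderm markers (20685–27901 against 3815–5089) and 3 of 5 spinal cord markers. Lower were 2 of 6 haematoendothelial, 2 of 4 endoderm and 2 of 4 cardiac markers. Of the 24 cell cycle genes 5 were higher and 7 lower. No marker of these lists was at 0 in the 4 populations at 144 h, and the part of cell type in the members' differences was not tested.

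**Figure D4:**
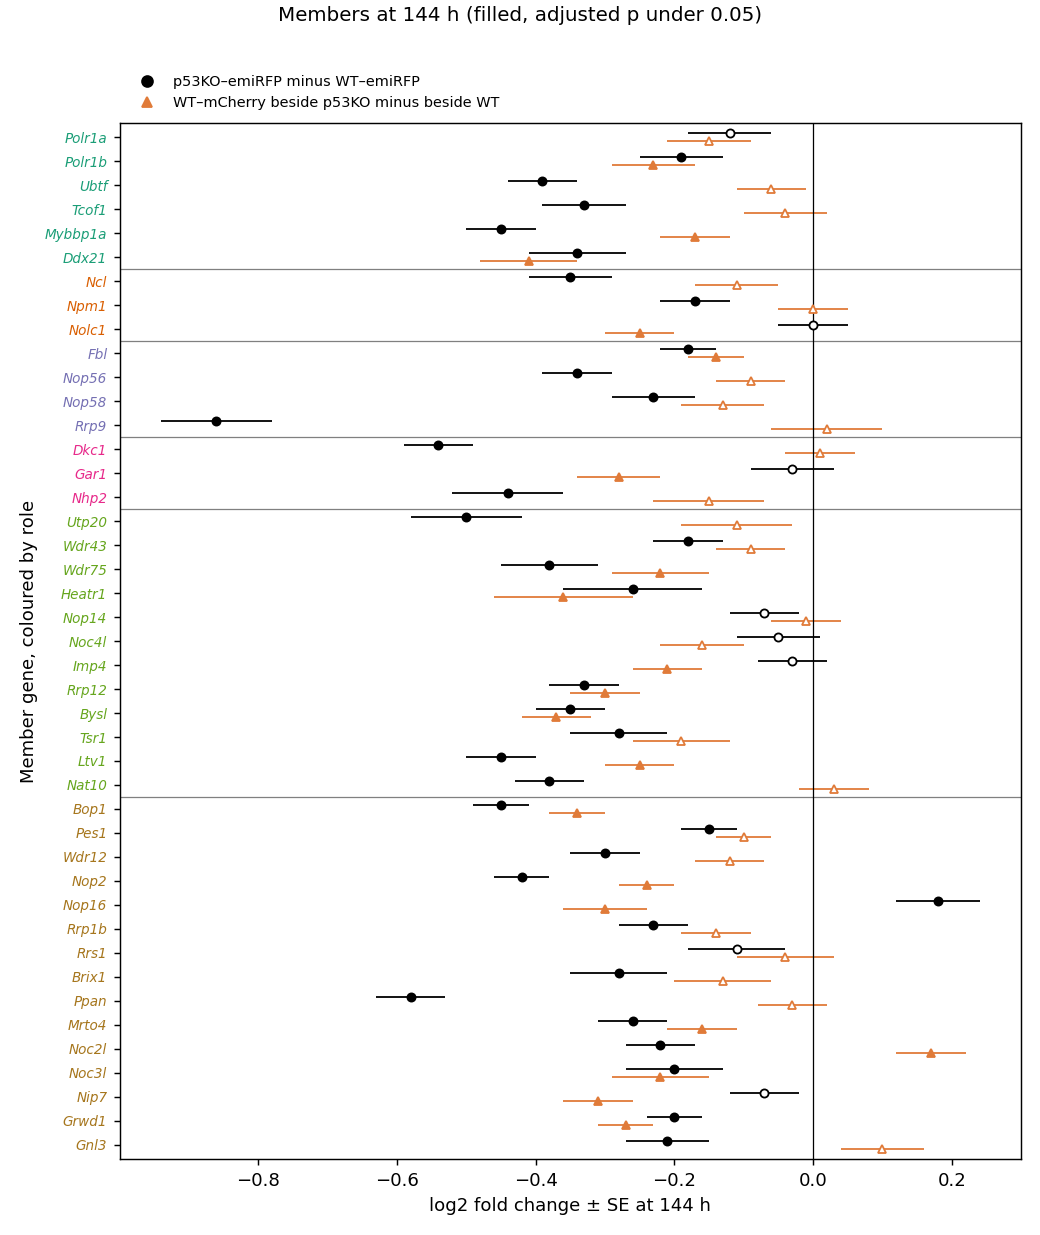
Log2 difference at 144 h of each of the 43 members (rows, by role) with its SE (bars) for p53KO–emiRFP minus WT–emiRFP and for WT–mCherry beside p53KO minus beside WT; filled points passed the test. Rrp9 lies farthest to the left for p53KO (-0.86) but at 0.02 for the neighbour comparison, and Nop16 lies at 0.18 and -0.30.

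Among the 116 other genes of the pathway 65 were lower and 10 higher at 144 h (median -0.18). The AAA ATPase Mdn1, which strips factors off pre-60S particles, had -0.82 ± 0.14 and Rrn3, which links polymerase I to its promoter factors, -0.76 ± 0.11, with -0.73 ± 0.07 for Urb2. Myc was higher by 0.74 ± 0.11 against WT–emiRFP (edgeR adjusted p = 5.1e-05) and by 0.92 ± 0.11 against WT–mCherry of the same gastruloids (edgeR adjusted p = 8.0e-06), but had 0.04 ± 0.11 against WT–mCherry beside WT (edgeR adjusted p = 0.79). Its mean normalized counts were 2467 ± 168 in p53KO–emiRFP, 1481 ± 150 in WT–emiRFP, 2402 ± 300 in WT–mCherry beside WT and 1306 ± 188 beside p53KO (SD, n = 3). Against WT–emiRFP Myc had been -0.52 ± 0.07 at 96 h and 0.01 ± 0.09 at 120 h.

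The change of the p53KO difference between 48 and 144 h was tested itself, in the fit of all 69 libraries. The difference was lower at 144 h for 40 of the 43 members and higher for 0 (median -0.43), against 25.4% and 24.8% of all genes. Rrp9 changed by -1.17 ± 0.11, Ppan by -0.75 ± 0.11, Bop1 by -0.70 ± 0.10 and Nhp2 by -0.66 ± 0.13, with edgeR adjusted p of 8.7e-13, 2.1e-08, 6.9e-08 and 3.6e-05. The 3 members without a call were Npm1 (-0.23 ± 0.12), Gar1 (-0.13 ± 0.11) and Nop16 (-0.04 ± 0.11). The size of this change depended on the WT population. With WT–mCherry beside WT as the control at both times, 24 members were lower and 0 higher (median -0.25; 18.1% and 18% of all genes). With WT–mCherry of the same gastruloids 14 were lower and 2 higher, Imp4 (0.18 ± 0.07) and Nop16 (0.26 ± 0.11), with a median of -0.14 and 21.6% and 23.9% of all genes. Rrp9 had -0.77 ± 0.11 and -0.78 ± 0.11 against these controls and Ppan -0.51 ± 0.11 and -0.41 ± 0.11, called each time. Bop1 had -0.47 ± 0.10 (edgeR adjusted p = 2.0e-04) and -0.11 ± 0.10 (0.39), and Nhp2 -0.41 ± 0.13 (0.014) and -0.30 ± 0.13 (0.060). Against WT–emiRFP, of the other genes of the pathway 77 of 116 were lower and 2 higher. In p53KO–emiRFP cells the share of all counts on the 43 members went from 2.05% ± 0.054 (SD, n = 3) at 48 h to 1.08% ± 0.011 (SD, n = 3) at 144 h, and in WT–emiRFP cells from 1.89% ± 0.056 (SD, n = 3) to 1.31% ± 0.044 (SD, n = 3).

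**Figure D5:**
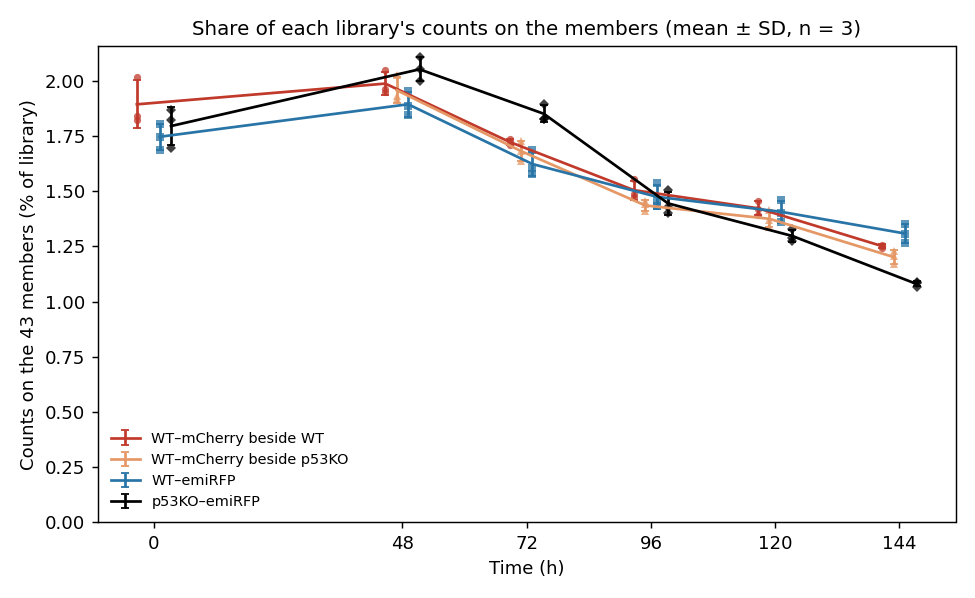
Share of all counts (%, vertical axis) on the 43 members against time (h) in the 4 populations, with libraries as points and the mean ± SD (n = 3) as lines with bars; the 0 h points are mES cells of the 3 clones. The p53KO–emiRFP mean is the highest at 48 h (2.05%) and the lowest at 144 h (1.08%).

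WT–mCherry cells were next compared by their neighbour, p53KO or WT. The paper states that the purity of the sorted RNA samples was not checked. Carried-over p53KO cells and a neighbour effect therefore cannot be told apart. Mean Trp53 counts were 16877 beside p53KO and 16766 beside WT at 48 h, and 14611 and 16754 at 144 h. At 48 h 0 members were higher and 0 lower beside p53KO cells by edgeR (median -0.02), against 0% of all genes higher and 0.0735% lower, and at 72 h again 0 and 0 (median -0.04; 0.231% and 0.327% of all genes). At both times 0 members had an unadjusted p below 0.05 and DESeq2 called 0, while the fit with the replicate block called 4 lower at 48 h, with 3.67% of all genes lower in that fit. The mean was lower beside p53KO cells for 29 of 43 members at 48 h and 38 at 72 h, as for 9764 of 17686 and 8622 of 17714 tested genes. Rrp9, for example, had 9891, 9760 and 8708 normalized counts beside p53KO and 9731, 9819 and 8747 beside WT at 48 h, with full overlap.

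From 96 h some members passed the test. At 96 h 40 of 43 had a lower mean (median -0.10), as had 9002 of 18343 tested genes. Of the members 3 were called lower and none higher, when 1.05% of all genes were lower and 2.87% higher. The called members were Nip7, a factor of pre-60S assembly (-0.20 ± 0.05), Bop1 (-0.19 ± 0.05) and Grwd1 (-0.17 ± 0.04). The replicate block, with same-numbered replicates taken as paired, called 23 lower, when 9.21% of all genes were. Without replicate 1 or 2 no member was called, and DESeq2 called 14 lower (3.22% of all genes). Bop1 had 7072, 7556 and 7201 beside p53KO and 8143, 8750 and 8041 beside WT, and these did not overlap, as was so for 23 members against 10.5% of all genes.

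At 120 h 37 of 43 had a lower mean (median -0.08), as had 9756 of 18860 tested genes. Of the members 2 were called lower and none higher, when 2.53% of all genes were lower and 3.43% higher. The called members were Ddx21 (-0.22 ± 0.05) and Ubtf (-0.18 ± 0.04), with edgeR adjusted p of 0.033 and 0.032. With the replicate block 13 were lower, when 10% of all genes were. Without any 1 of the replicates no member was called, and DESeq2 called 10 lower (4.48% of all genes). Ubtf had 14253, 13793 and 13964 beside p53KO and 15471, 16249 and 15870 beside WT, without overlap.

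Other lists differed by neighbour at these times too. Of 24 cell cycle genes 6 were lower beside p53KO cells at 96 h and 3 at 120 h, and none was higher. Their summed level was 332149–343685 beside p53KO and 365040–373384 beside WT at 96 h, and 345839–356134 and 372103–384269 at 120 h, without overlap at either time. Of 8 naive pluripotency markers 3 were lower at 96 h and 2 at 120 h. At 120 h 5 of 7 primitive streak and caudal markers were higher (22974–29847 against 16623–18559 in sum), as were 4 of 7 paraxial mesoderm markers. At 96 h the sums of the streak and caudal markers were 106884–109618 beside p53KO and 99781–105871 beside WT. At 120 h those of the haematoendothelial markers were 2609–2986 beside p53KO and 3661–4372 beside WT. The part of these lists was not tested.

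At 144 h 19 of the 43 members were lower beside p53KO cells and 1, Noc2l, was higher (median -0.15), against 15.4% of all genes lower and 10.1% higher. Ddx21 had 15194, 13958 and 15601 normalized counts beside p53KO and 18878, 19202 and 21291 beside WT. The values beside p53KO were below all those beside WT, and the difference was -0.41 ± 0.07 (edgeR adjusted p = 0.0013). Next came Bysl, a factor of pre-40S maturation (-0.37 ± 0.05), Heatr1 (-0.36 ± 0.10) and Bop1 (-0.34 ± 0.04). Heatr1 lost its call without replicate 1 or 2 (edgeR adjusted p = 0.14 and 0.084), and Noc2l without any 1 replicate (0.10, 0.13 and 0.059). The count was 12 without replicate 1 and 8 without replicate 2, all lower (8.62% and 6.59% of all genes). With TMM factors the median of the members was -0.10, and that of all genes moved from -0.03 to 0.02.

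By role, 3 of 6 polymerase I factors, 6 of 12 factors of 40S assembly and 7 of 15 of 60S assembly were lower beside p53KO cells at 144 h, and 1 in each of the 3 smaller roles. Polr1b had 3977, 4176 and 4532 beside p53KO and 4917, 4677 and 5245 beside WT (-0.23 ± 0.06; edgeR adjusted p = 0.015), and lost its call without replicate 1 or 2 (0.14 and 0.075). The 4 members with the largest differences between p53KO–emiRFP and WT–emiRFP cells were not called here, with 0.02 ± 0.08 for Rrp9, -0.03 ± 0.05 for Ppan, 0.01 ± 0.05 for Dkc1 and -0.11 ± 0.08 for Utp20, while Bop1 (-0.34 ± 0.04) and Mybbp1a (-0.17 ± 0.05), each at -0.45 in the p53KO comparison, were lower here. Nolc1, Gar1, Imp4, Nop16 and Nip7 were called lower beside p53KO cells and not in p53KO–emiRFP cells themselves. Of the 19 members lower beside p53KO cells, 14 were also lower in p53KO–emiRFP cells, as were 34 of all 43, and of those 34 members 14 were lower beside p53KO cells, as were 19 of all 43. The other genes of the pathway had 43 lower and 1 higher of 116, with -0.40 ± 0.06 for the 40S factor Wdr46, -0.35 ± 0.07 for the pre-40S factor Pno1 and 0.37 ± 0.08 for Nop53. Myc had -0.88 ± 0.11 (edgeR adjusted p = 2.1e-04).

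Other lists moved with the neighbour at 144 h. Lower beside p53KO cells were 11 of 24 cell cycle genes (summed level 310578–339684 against 348751–360654), 4 of 5 spinal cord, 3 of 6 haematoendothelial and 3 of 4 formative markers. Higher were 5 of 7 primitive streak and caudal markers (3357–3972 against 1162–1433) and 4 of 7 paraxial mesoderm markers. Their part in the members' differences was not tested.

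The difference between the WT clones gave a measure of what clones of 1 genotype differ by. WT–emiRFP minus WT–mCherry had 3, 4, 3 and 1 members lower at 0, 48, 72 and 96 h, none called at 120 h and 4 higher at 144 h, when 11.1%, 8.89%, 7.64%, 2.15%, 1.24% and 23.8% of all genes were called in either direction at these times. The lower members were Noc2l (-0.43 ± 0.11), Utp20 (-0.41 ± 0.10) and Noc3l (-0.33 ± 0.09) at 0 h and Nip7, Nop2, a ribosomal RNA methyltransferase, Polr1b and Ubtf at 48 h, by -0.22 ± 0.07, -0.19 ± 0.05, -0.17 ± 0.04 and -0.17 ± 0.04 in turn. At 120 h edgeR called no member, 4 had an unadjusted p below 0.05 and DESeq2 called 1. The higher members at 144 h were Rrp9 (0.35 ± 0.08), Tcof1 (0.18 ± 0.06), Nop14 (0.15 ± 0.05) and Ltv1 (0.14 ± 0.05). Other lists differed between the clones too. At 48 h the WT–emiRFP and WT–mCherry sums were 410123–435454 and 452304–472142 for cell cycle genes. For naive markers they were 10743–11550 and 15312–15983. At 144 h they were 80039–93354 and 57155–63314 for naive and 3815–5089 and 6568–9643 for paraxial mesoderm markers, while cell cycle sums overlapped. Their part was not tested.

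The median difference between the clones was -0.10 at 48 h, -0.10 at 72 h and 0.07 at 144 h. Same-numbered libraries of the WT + WT clones were taken as sorted from the same gastruloids. The fit with the replicate block called 31 members lower and 1 higher at 48 h (16.5% and 12.3% of all genes), 13 lower at 72 h (7.11%), 9 lower at 96 h (7.2%), 1 lower at 120 h (5.58%) and 9 higher at 144 h (16.5%). In mES cells it called 4 lower and 3 higher (7.19% and 10.1%). Leaving out replicate 1, 2 or 3 left 5, 0 and 0 called members at 0 h, none at 48, 72 or 96 h in any case, and 1 in each case at 144 h. At 48 and 72 h WT–emiRFP, the control of the p53KO comparison, was thus the WT population with the lower levels for most members, as at 48 h for 41 of 43, and at 144 h the one with the higher levels, for 40 of 43. The p53KO and clone comparisons share the WT–emiRFP libraries, and the neighbour and clone comparisons share the WT–mCherry libraries beside WT, so their values are not independent.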

How the data were processed

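RNA was measured by RNA-seq in 69 libraries of sorted mouse cells. The authors trimmed reads with Trim Galore 0.6.7 and aligned them with STAR 2.7.11b to GRCm38.p6 with Gencode annotation. They deposited unnormalized counts of uniquely mapped reads per gene symbol, 26722541 to 72981570 per library (median 53098728). The strand setting of the counting is not given in the sources used here, so reads of the 19 members whose exons overlap a gene on the opposite strand may include some of that gene. Mrto4 has named pseudogenes, and 8 members hold 23 snoRNA genes. Positions, lengths and overlaps here are from Gencode M21 on GRCm38, a release other than the one the paper names for the counts, in which all 43 members were found. Among genes with a mean count of at least 50, no pair of replicates shared counts for more than 1.35%.

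Counts were scaled by median-ratio size factors over the 69 libraries. Each time point was fitted on its own (12 libraries, 9 at 0 h) after edgeR's filterByExpr, and differences were tested with edgeR's quasi-likelihood F test (edgeR 4.0.16, limma 3.58.1, R 4.3.3). Contrasts between time points came from 1 fit of all 69 libraries. P-values were adjusted by Benjamini-Hochberg over all tested genes with a threshold of 0.05. No share of all genes is given for counts at an unadjusted p or for members called at several time points. The same holds for the unfiltered fit of p53KO–emiRFP cells from 0 to 48 h. The sample labels gave the groups and the replicate numbers. Counts for 120 h (18621 genes) were simulated with the same dispersion for every gene and no replicate effect. For p53KO–emiRFP against WT–emiRFP, 96.5% of 200 genes changed 2-fold were called, and 3.5% of calls fell on unchanged genes. In the neighbour comparison, where nothing was changed, 0 calls were made. Within each time point the members' differences were smaller than 2-fold, so the simulation does not measure how many of them would be called. The replicates came from 3 separate experiments, and the library names carry the replicate numbers alike in every group. Same-numbered libraries of a time point were therefore taken as paired in the replicate block, an alternative fit. The main fits were by group only and did not use this pairing. Over 14106 genes with a mean of at least 50, same-numbered p53KO–emiRFP and WT–emiRFP libraries deviated together (r = 0.116 to 0.491 across genes). Over all comparisons within a time point the values ran from 0.041 to 0.688.

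The members and gene lists were chosen with earlier results of these data known. Named with values were landmark members and, per comparison, up to 4 members with the largest called rise and fall that had 1 direction in all 3 same-numbered pairs. From the other pathway genes up to 3 per direction at 144 h were named. Other values shown, among them Myc, Mycn and the members that lost a call, were chosen after the data were seen. Alternatives were TMM factors, library totals, no filter, DESeq2 1.42.0, a replicate block, single replicates left out, other sets of libraries and other WT controls.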

Additional observations from a re-analysis of the deposited data

Results flagged for a closer look

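The difference between p53KO–emiRFP and WT–emiRFP cells was not the same at 48 h and at 144 h, by a test of the change itself in the fit of all 69 libraries (edgeR's quasi-likelihood test). It was lower at 144 h for 40 of the 43 members and higher for 0, when 25.4% of all genes were lower and 24.8% higher. The changes on the log2 scale were -1.17 for Rrp9, -0.75 for Ppan, -0.70 for Bop1 and -0.66 for Nhp2, the 4 largest falls among members that had 1 direction in all 3 same-numbered replicates. With WT–mCherry beside WT as the control 24 members were lower and 0 higher, when 18.1% and 18% of all genes were, and these 4 changes were -0.77, -0.51, -0.47 and -0.41, each called. With WT–mCherry beside p53KO as the control 14 were lower and 2 higher (21.6% and 23.9% of all genes), with -0.78 for Rrp9 and -0.41 for Ppan, both called, and -0.11 for Bop1 and -0.30 for Nhp2, which were not. No group of libraries was tested for single outlying samples, since each held 3.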

How the results depend on the processing

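The fall from 48 to 144 h in WT cells, that in p53KO–emiRFP cells and the p53KO comparison at 72 h kept their counts of called members within 1.5 times of those reported under every alternative run, and the change of the p53KO difference did so except against other WT controls. Library totals shifted the median of all genes by 0.21 from 48 to 144 h in WT and by 0.20 in p53KO–emiRFP cells. For the members named with values, DESeq2 left 400 of the tested differences on their side of the threshold, gained 22 and lost 2, and TMM left 405, gained 8 and lost 11. Leaving out replicate 1, 2 or 3 lost 44, 50 and 38 and gained 0, 2 and 0. With only the compared groups 23 were lost and 1 gained, without a filter 20 and 15, and with library totals 19 and 7. The replicate block gained 58 and lost 0. The causes of the following changes were not tested. Percentages in parentheses are shares of all tested genes called, in either direction, in the same fits and in the same order. In WT–emiRFP cells alone 21 members were called from 0 to 48 h, 27 from 72 to 96 h, 18 from 96 to 120 h and 11 from 120 to 144 h (60.3%, 41.5%, 42.3% and 33.8%), and Nop14 had 0.02 from 0 to 48 h in WT–mCherry cells beside WT alone. The replicate block called 13 members at 96 h and 20 at 120 h for p53KO–emiRFP minus WT–emiRFP (38.6% and 61.7%). For WT–mCherry beside p53KO minus beside WT it called 4, 23 and 13 at 48, 96 and 120 h (4.91%, 20.9% and 20.3%). For WT–emiRFP minus WT–mCherry it called 7, 32, 13, 9, 1 and 9 at 0, 48, 72, 96, 120 and 144 h (17.3%, 28.8%, 16.2%, 16%, 10.8% and 33.9%). Deviations of same-numbered libraries did not all correlate over 0.1 in the neighbour comparison at 120 h and in the clone comparison at 0 and 72 h, nor in p53KO–emiRFP cells across time points (-0.107 to 0.067). The block changed no other count by over 1.5 times. With only the compared groups in the fit, 2 members were called for p53KO at 96 h (21.7%), 0 and 0 for the neighbour at 96 and 120 h (1.56% and 2.89%), and 1, 0, 0 and 2 for the clones at 48, 72, 96 and 144 h (6.94%, 3.24%, 0.932% and 22.3%). With all 69 libraries in the fit, 2 and 1 were called for p53KO at 0 and 96 h (13.8% and 18.5%), 0 and 8 for the neighbour at 96 and 120 h (3.06% and 7.69%), and 12 and 0 for the clones at 0 and 96 h (24% and 2.03%). DESeq2 called 14 and 10 for the neighbour at 96 and 120 h (8.31% and 9.82%) and 5, 10, 4 and 1 for the clones at 0, 72, 96 and 120 h (14%, 10.3%, 5.52% and 4.25%). Without a filter the neighbour had 5 at 96 h (4.28%) and the clones 5 at 0 h (7.87%). With library totals the clones had 1, 1 and 0 at 48, 72 and 96 h (9.96%, 8.73% and 2.51%). Leaving out 1 replicate gave 9 to 17, 1 to 3 and 6 to 9 members for p53KO at 48, 96 and 120 h (9.89 to 15.5%, 10.1 to 19% and 36.5 to 45.4%). It gave 0 to 2, 0 to 0 and 8 to 16 for the neighbour at 96, 120 and 144 h (0 to 3.17%, 0.736 to 3.23% and 11.8 to 15.5%). For the clones it gave 0 to 5, 0 to 0, 0 to 0, 0 to 0 and 1 to 1 at 0, 48, 72, 96 and 144 h (0.64 to 14.3%, 1.88 to 5.5%, 0.94 to 7.91%, 0.163 to 1.71% and 11.1 to 15%). Other WT controls were added after the data were seen. Against WT–mCherry beside WT, p53KO–emiRFP had 4, 8 and 10 called members at 0, 48 and 96 h (21.4%, 25.5% and 24.8%), of which 3, 8 and 1 were higher. For the change from 48 to 144 h it had 24 (36.1%), and Polr1b had -0.03 at 120 h. Against WT–mCherry beside p53KO, p53KO–emiRFP had 11, 8 and 19 at 48, 96 and 144 h (25.3%, 23.6% and 64.2%), of which 11, 6 and 6 were higher. For the change it had 16 (45.5%), in which Polr1a had 0.01, and at 144 h Polr1b had 0.06 and Heatr1 0.17.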
